A study of Mus musculus with 12 samples.

Results

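The complement genes described here are C1qa, C1qb and C1qc, which encode the 3 chains of C1q, the component genes C3, Cfb and Cfp, and the receptor genes C3ar1 and C5ar1. These 8 genes were chosen by name from the 20018 genes named on the array, and each is represented by its brightest probe. Alveolar macrophages, which live in the air spaces and clear surfactant and particles, were sorted by flow cytometry from the lavage fluid of female C57BL/6 mice aged 8 to 9 weeks. The mice lacked Bach1 (Bach1 KO), Bach2 (Bach2 KO) or both genes (DKO), or were wild type (WT), with 3 independent mice per genotype. Each mouse provided RNA for 1 Agilent array with a single dye, 12 arrays in all. The sources used here do not say how the deletions were made or in which cells.

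Complement is a cascade of plasma and cell-derived proteins that marks particles for uptake, attracts leukocytes and forms pores in membranes. C1q binds antibody complexes and dying cells and starts the classical pathway. Factor B (Cfb) supplies the protease of the alternative pathway convertase that cleaves C3, and properdin (Cfp) stabilises that enzyme. The fragments released from C3 and C5 are sensed by the receptors C3ar1 and C5ar1 on myeloid cells. C1q is made largely by macrophages, and its level is a usual mark that separates tissue macrophage populations. Bach1 and Bach2 are related transcriptional repressors that bind DNA together with small Maf proteins.

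All levels below are log2 signals minus the 75th percentile of the same array, so that a level of 0 is the array's 75th percentile, and the order of replicates is 1, 2, 3. Levels of different genes come from different probes and are not set against each other. A value called well above background is one that the scanner software separated from the local background. Differences were tested with limma over all 12 arrays, with Benjamini-Hochberg adjustment over 23142 genes and transcripts, and passed at an adjusted p under 0.05. The share of the 59305 non-control spots called well above background ran from 45.2% to 72.4% per array, and 0 spots were saturated. The number of arrays limits the precision. All Bach1 KO and WT arrays and Bach2 KO replicates 1 and 2 shared slide 1, and Bach2 KO replicate 3 was on slide 2. Of the 12 arrays, only the 3 DKO arrays were on slide 3, which had a later scan day. An effect of that slide or day and an effect of the DKO genotype cannot be told apart. The Bach1 probe read 2.40, 2.55 and 2.53 in Bach1 KO and 2.59, 3.13 and 1.72 in DKO, against 3.72, 4.28 and 3.77 in WT. Its difference passed in DKO (-1.44 ± 0.32, SE, adjusted p = 0.0058) and not in Bach1 KO (-1.43 ± 0.32, adjusted p = 0.217). For Bach2, 1 probe was below background on all arrays and the other did not differ between Bach2 KO and WT beyond its error (-0.52 ± 1.29, adjusted p = 0.775), so these probes did not check the Bach2 labels. The sources used here do not say where they lie relative to the deleted part.

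The promoter sequences of the genes with the largest differences are shown as context for the values that follow. C1qb, C1qc and C3ar1 were higher and C5ar1 was lower in both genotypes without Bach2. The RefSeq promoter table (GRCm38.p6) held 6 of the 8 genes, without C1qa and Cfb. Each line gives the 250 bases before the annotated start, 5′ to 3′ on the strand of the gene. Capitals mark matches, on either strand, to TGANTCA (a core bound by Bach proteins with small Maf partners and by AP-1), to TGCTGA (a Maf half-site) or to GAGGAA (a core of PU.1 sites).
C1qb, chr4:136886201-136886450, minus strand: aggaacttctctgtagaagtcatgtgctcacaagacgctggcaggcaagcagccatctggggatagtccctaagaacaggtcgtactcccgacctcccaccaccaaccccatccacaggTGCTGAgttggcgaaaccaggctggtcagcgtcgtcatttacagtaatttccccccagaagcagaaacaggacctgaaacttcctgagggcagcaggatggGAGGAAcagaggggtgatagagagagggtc
C1qc, chr4:136892915-136893164, minus strand: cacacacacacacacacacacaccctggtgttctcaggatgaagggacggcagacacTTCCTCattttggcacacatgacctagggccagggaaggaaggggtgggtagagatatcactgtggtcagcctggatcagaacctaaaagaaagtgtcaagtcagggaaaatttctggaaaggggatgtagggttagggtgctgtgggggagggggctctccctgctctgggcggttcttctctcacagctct
C3ar1, chr6:122856158-122856407, minus strand: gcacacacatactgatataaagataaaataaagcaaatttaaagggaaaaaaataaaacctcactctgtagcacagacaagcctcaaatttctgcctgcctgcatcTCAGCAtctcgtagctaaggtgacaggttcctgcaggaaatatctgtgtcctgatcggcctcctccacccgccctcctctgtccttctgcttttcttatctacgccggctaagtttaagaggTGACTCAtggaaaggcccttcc
C5ar1, chr7:16259339-16259588, minus strand: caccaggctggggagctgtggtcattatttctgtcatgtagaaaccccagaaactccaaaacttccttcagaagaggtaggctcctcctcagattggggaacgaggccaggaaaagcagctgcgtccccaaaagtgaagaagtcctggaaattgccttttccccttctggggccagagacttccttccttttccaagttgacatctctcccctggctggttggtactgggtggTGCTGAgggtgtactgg

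The search window ran from 250 bases before to 50 bases after the start, 300 bases in all, and no match overlapped another. TGANTCA was found in 1 of the 6 windows, that of C3ar1, where the word TGACTCA begins at position -22 counted from the start. This motif was present in 7.81% of all 32851 promoters of the table. TGCTGA was present in 19.5% of all promoters and in those of C1qb (position -131), C5ar1 (-17), C3ar1 (-144, on the other strand) and C3 (-182, on the other strand). GAGGAA was present in 28.3% of all promoters and in those of C1qb (-30), C1qc (-193, on the other strand) and Cfp (at 7 and 23 after the start, both on the other strand). These matches describe the letters of the windows and were not tested against the expression values.

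C1qb, the B chain of C1q, gave the most precise picture of C1q because its probe was well above background on all 12 arrays. It read -2.69, -2.47 and -2.89 in Bach1 KO, 3.64, 3.34 and 4.62 in Bach2 KO and 2.30, 2.33 and 3.34 in DKO, against -2.87, -2.83 and -2.22 in WT. The Bach2 KO and DKO arrays all lay above the Bach1 KO and WT arrays, and the gap between these ranges was wider than the spread within any genotype. C1qb rose by 6.51 ± 0.39 in Bach2 KO (90.8-fold, SE, adjusted p = 6.19e-07) and by 5.30 ± 0.39 in DKO (39.3-fold, adjusted p = 1.74e-06), each against WT. In Bach1 KO against WT its difference was -0.04 ± 0.39 (95% interval -0.91 to 0.82, adjusted p = 0.9999). In DKO against Bach2 KO it was -1.21 ± 0.39, which did not pass (adjusted p = 0.112). In a fit of these 6 arrays alone with replicate number as a block it passed (-1.21 ± 0.21, adjusted p = 0.0324). That fit was added after seeing the data. With the block over all 12 arrays the C1qb difference did not pass by limma (adjusted p = 0.0846).

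C1qa, the A chain, read -6.26, -7.71 and -6.33 in Bach1 KO, 4.62 and 5.38 in Bach2 KO replicates 2 and 3, and 3.43, 3.09 and 4.37 in DKO, against -6.49, -3.86 and -6.12 in WT. The spot of Bach2 KO replicate 1 was marked as an outlier by the scanner software and was left out of the fit. It would have read 4.35. C1qa was well above background on every Bach2 KO and DKO array, but on 1 of 3 Bach1 KO and 1 of 3 WT arrays. It was higher in Bach2 KO than in WT by 10.49 ± 0.77 (adjusted p = 4.85e-06, n = 2 in Bach2 KO), or by 10.27 with that spot kept. In DKO it was higher than in WT by 9.12 ± 0.69 (adjusted p = 4.03e-06), and without WT replicate 2, the brightest WT array, the differences were 11.30 in Bach2 KO and 9.94 in DKO. Since 2 of 3 WT arrays measured no signal above background, the size of these differences is known less well than that of C1qb.

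C1qc, the C chain, read -7.80, -7.06 and -6.49 in Bach1 KO, 4.45, 4.10 and 4.33 in Bach2 KO and 4.40, 3.95 and 4.59 in DKO, against -2.08, -4.09 and -7.29 in WT. It was well above background on 0 of 3 Bach1 KO arrays and on 2 of 3 WT arrays. The WT arrays were spread over a wider range than those of the other genotypes (SD 2.63, against 0.65 in Bach1 KO, 0.18 in Bach2 KO and 0.33 in DKO), and no WT array reached the Bach2 KO or DKO range. C1qc rose by 8.78 ± 0.95 in Bach2 KO (adjusted p = 4.86e-05) and by 8.80 ± 0.95 in DKO (adjusted p = 3.62e-05), each against WT. Without WT replicate 3, which was not well above background, these were 7.38 and 7.40. Against Bach1 KO, where the probe gives only a bound, C1qc was at least 985-fold higher in Bach2 KO (adjusted p = 6.64e-06) and at least 997-fold higher in DKO (adjusted p = 4.61e-06). Such a bound sets each dim array at its own value or at the lowest signal called well above background on that array, whichever is higher. In Bach1 KO against WT the bound was at least 2.24-fold lower and did not pass (fitted difference -2.63 ± 0.95, adjusted p = 0.707). Without WT replicate 3 the fitted difference was -4.04 and passed (adjusted p = 0.0254), so that this call rests on WT replicate 3.

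**Figure D1:**
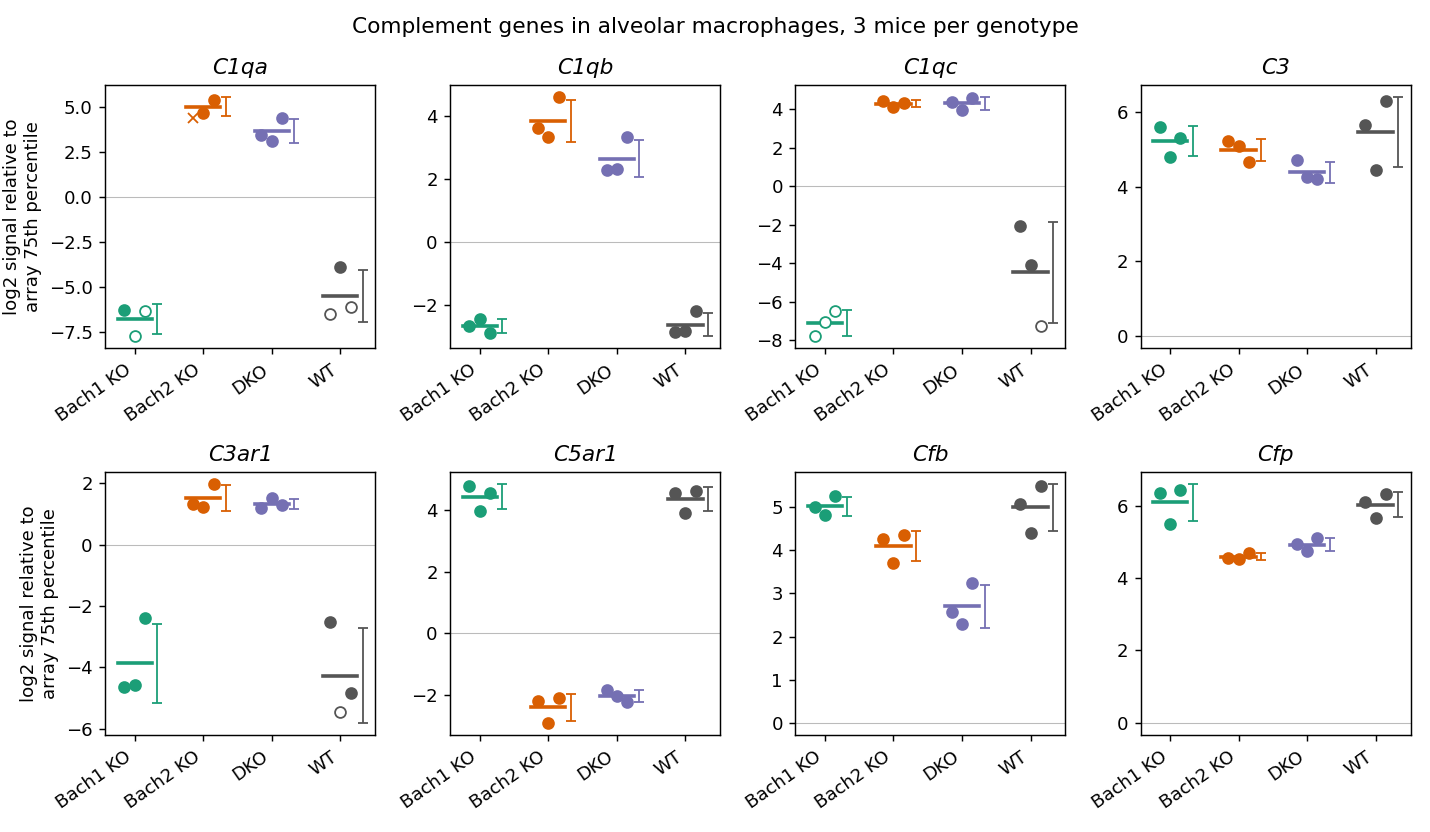
Level of each of the 8 complement genes on the 12 arrays, as log2 signal minus the array's 75th percentile (vertical axis), for Bach1 KO, Bach2 KO, DKO and WT (horizontal axis). Filled points were well above background, hollow points were not, a cross is a spot marked as an outlier and left out, bars are means and whiskers SD. The C1q chains and C3ar1 are high in Bach2 KO and DKO and C5ar1 is low there, while C3 overlaps between Bach2 KO and WT.

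C3ar1, the receptor for the C3a fragment, read -4.63, -4.59 and -2.39 in Bach1 KO, 1.34, 1.24 and 1.99 in Bach2 KO and 1.19, 1.51 and 1.30 in DKO, against -2.53, -5.45 and -4.83 in WT. WT replicate 2 was not well above background, and the other 11 arrays were. The arrays without Bach2 lay in a narrow range above all others, and Bach1 KO overlapped WT. C3ar1 rose by 5.79 ± 0.73 in Bach2 KO (55.4-fold, adjusted p = 0.000144) and by 5.60 ± 0.73 in DKO (48.6-fold, adjusted p = 0.000162), each against WT. Without WT replicate 1 these were 6.66 and 6.47, and without WT replicate 2 they were 5.20 and 5.01. Its differences were 0.40 ± 0.73 in Bach1 KO against WT (95% interval -1.21 to 2.01) and -0.19 ± 0.73 in DKO against Bach2 KO (-1.80 to 1.42), and neither passed.

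C5ar1, the receptor for the C5a fragment, went the other way. It read 4.78, 3.97 and 4.55 in Bach1 KO, -2.21, -2.91 and -2.11 in Bach2 KO and -1.83, -2.02 and -2.23 in DKO, against 4.56, 3.90 and 4.61 in WT. All arrays were well above background, so the low level in both genotypes without Bach2 was still a measured level. C5ar1 fell by 6.77 on the log2 scale in Bach2 KO (SE 0.32, 109-fold lower, adjusted p = 1.33e-07) and by 6.38 in DKO (SE 0.32, 83.6-fold lower, adjusted p = 1.03e-07), each against WT. Bach1 KO differed from WT by 0.08 ± 0.32 (95% interval -0.62 to 0.78) and DKO differed from Bach2 KO by 0.38 ± 0.32 (-0.32 to 1.08), and neither passed.

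Cfb, complement factor B, read 4.99, 4.81 and 5.26 in Bach1 KO, 4.26, 3.70 and 4.34 in Bach2 KO and 2.58, 2.29 and 3.25 in DKO, against 5.07, 4.41 and 5.50 in WT. The DKO arrays lay below all 9 others, the Bach2 KO arrays lay between them and the WT arrays, and Bach1 KO overlapped WT. Cfb fell in DKO against WT (-2.29 ± 0.33, 4.89-fold lower, adjusted p = 0.000312) and against Bach2 KO (-1.40 ± 0.33, 2.63-fold lower, adjusted p = 0.0401). Bach2 KO lay below WT without overlap, but the difference of -0.89 ± 0.33 missed the threshold (adjusted p = 0.0509). It passed without WT replicate 2 (-1.18, adjusted p = 0.0136) and with replicate number as a block (adjusted p = 0.00889). With no scaling between arrays it was -0.20 (adjusted p = 0.702). The DKO against Bach2 KO call was lost in 9 of 23 alternatives, among them the fits without Bach2 KO replicate 1 (adjusted p = 0.130), Bach2 KO replicate 3 (0.141), DKO replicate 1 (0.143) and DKO replicate 2 (0.114).

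Cfp, properdin, read 6.34, 5.50 and 6.43 in Bach1 KO, 4.57, 4.51 and 4.69 in Bach2 KO and 4.93, 4.74 and 5.09 in DKO, against 6.09, 5.66 and 6.33 in WT. All Bach2 KO and DKO arrays lay below all Bach1 KO and WT arrays, and the Bach2 KO arrays lay just below the DKO arrays. Cfp fell by 1.44 on the log2 scale in Bach2 KO (SE 0.26, 2.71-fold lower, adjusted p = 0.00174) and by 1.11 in DKO (SE 0.26, 2.15-fold lower, adjusted p = 0.00935), each against WT. With quantile normalization the Bach2 KO difference was -0.71 (adjusted p = 0.0112), and with no scaling between arrays the DKO difference was -0.67 and did not pass (adjusted p = 0.0776). The 0.33 ± 0.26 between DKO and Bach2 KO did not pass (95% interval -0.24 to 0.91, adjusted p = 0.508).

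C3, the central component of the cascade, had the smallest differences of the 8 genes in Bach2 KO and in DKO against WT. Its brightest probe read 5.60, 4.80 and 5.30 in Bach1 KO, 5.23, 5.09 and 4.65 in Bach2 KO and 4.71, 4.25 and 4.21 in DKO, against 5.64, 4.44 and 6.30 in WT. Every genotype overlapped WT, whose arrays were spread more widely (SD 0.94) than those of Bach1 KO (0.40), Bach2 KO (0.30) and DKO (0.28). The differences against WT were -0.23 ± 0.40 in Bach1 KO (adjusted p = 0.9999), -0.48 ± 0.40 in Bach2 KO (adjusted p = 0.379) and -1.07 ± 0.40 in DKO (adjusted p = 0.0684). Without WT replicate 2, the lowest WT array, they passed in Bach2 KO (-0.99, adjusted p = 0.0270) and in DKO (-1.58, adjusted p = 0.00337). Without WT replicate 3, the highest WT array, they were -0.055 and -0.65 and did not pass. The Bach2 KO difference turned to 0.23 with quantile normalization and to 0.22 with no scaling between arrays, neither of which passed. C3 was the only one of the 8 genes with another probe, and the probes disagreed in Bach2 KO. The other probe averaged 4.37 ± 0.13 in Bach1 KO, 5.03 ± 0.21 in Bach2 KO and 4.15 ± 0.14 in DKO, against 4.56 ± 0.50 in WT (SD, n = 3). Its difference of 0.47 ± 0.25 in Bach2 KO against WT had the opposite sign and did not pass either (adjusted p = 0.154).

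Of the 8 genes, 4 rose, 2 fell and 2 did not pass in Bach2 KO against WT, where 37.1% of all genes and transcripts passed, 12.4% higher and 24.7% lower. In DKO against WT 4 rose, 3 fell and 1 did not pass, where 27.2% of all passed, 10.6% higher and 16.6% lower. The filter on dim probes required a genotype whose arrays were all well above background. C1qa and C1qc passed it only through Bach2 KO and DKO, where they were high. The median difference of the 8 genes was 2.66 in Bach2 KO and 2.11 in DKO, against -0.30 and -0.28 over all genes and transcripts. The Bach2 KO median lies in a gap between C3ar1 (5.79) and C3 (-0.48), and the DKO median between C1qb (5.30) and C3 (-1.07). The 4 genes below each gap had differences below 0, so these medians describe no shared shift. Between the genotypes 7 of 8 did not overlap in Bach2 KO against WT and 7 of 8 in DKO against WT, where 50.5% and 44.9% of all did not. These comparisons share the WT arrays, so their likeness is not independent evidence. In Bach1 KO against WT 0 of 8 passed, where 0.0605% of all did, 0.0173% higher and 0.0432% lower. At an unadjusted p under 0.05 by limma there was 1 of 8 (C1qc), against 1229 of 23142 genes and transcripts. None of the 8 genes was free of overlap there, against 6.78% of all.

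**Figure D2:**
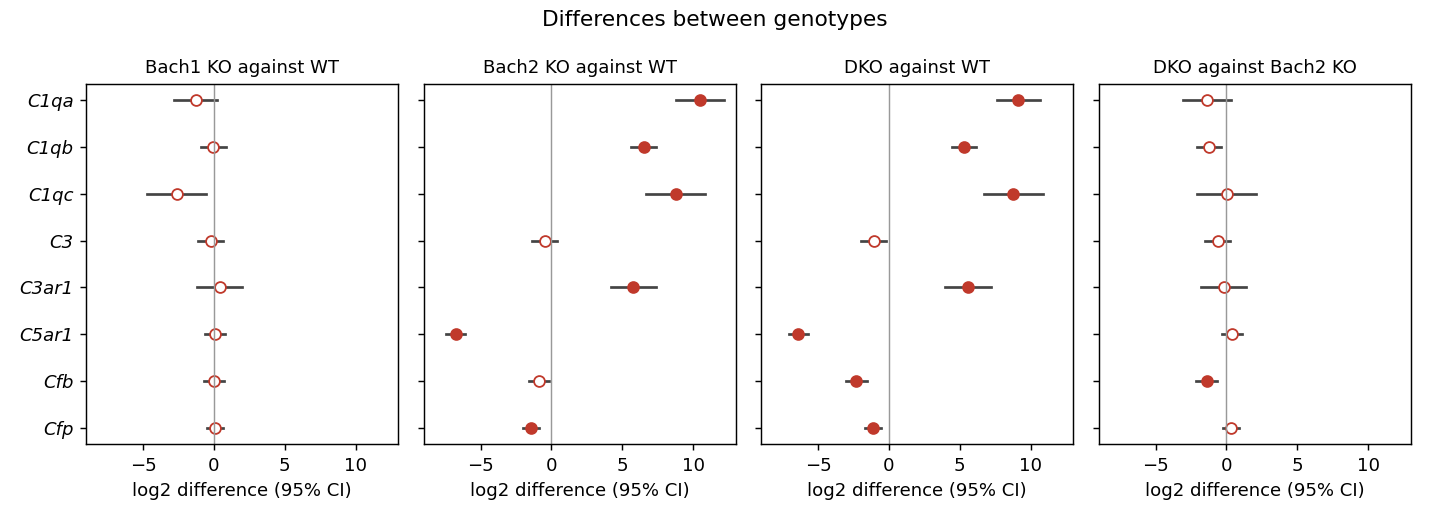
Difference of each complement gene in log2 units (horizontal axis) for Bach1 KO, Bach2 KO and DKO against WT and for DKO against Bach2 KO, with 95% intervals from limma. Filled points passed an adjusted p of 0.05. C1qa, C1qb, C1qc and C3ar1 lie far to the right and C5ar1 far to the left in both genotypes without Bach2, and Cfb is the gene that passed between DKO and Bach2 KO.

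The genotypes that lack Bach2 were also set against Bach1 KO. In DKO against Bach1 KO 4 rose and 3 fell, where 26.1% of all genes and transcripts passed (10.9% higher and 15.3% lower), and 8 of 8 did not overlap, against 46.1% of all. In Bach2 KO against Bach1 KO 4 rose and 3 fell, where 33.2% passed (12.2% higher and 21% lower), and 7 of 8 did not overlap, against 51% of all. C1qa was higher by 10.40 ± 0.69 in DKO and by 11.76 ± 0.77 in Bach2 KO (n = 2 in Bach2 KO). It was well above background on 1 of 3 Bach1 KO arrays, so the size of these differences is not well known. C5ar1 was lower in both genotypes, with differences of -6.46 ± 0.32 in DKO and -6.85 ± 0.32 in Bach2 KO. Cfb fell by 0.92 in Bach2 KO against Bach1 KO (SE 0.33, adjusted p = 0.0491), a call that was lost in 14 of 23 alternatives. C3 did not pass in either comparison.

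Whether Bach1 loss acted differently with and without Bach2 was read from the difference of DKO minus Bach2 KO and Bach1 KO minus WT. For 0 of the 8 genes did this interaction pass by limma, where 0.674% of all genes and transcripts passed, 0.104% higher and 0.57% lower. At an unadjusted p under 0.05 there was 1 of 8 (Cfb, -1.43 ± 0.46, adjusted p = 0.212), against 3414 of 23142 genes and transcripts. The fitted interaction of C1qc was 2.65 ± 1.35 (adjusted p = 0.382), and its size is not known because the probe was well above background on 0 of 3 Bach1 KO arrays. It passed without WT replicate 3 (4.05, adjusted p = 0.0378). In DKO against Bach2 KO 1 of 8 passed (Cfb), where 3.56% of all did (1.45% higher and 2.11% lower), and 3 of 8 did not overlap, against 35.1% of all. Without a block C1qa was -1.36 ± 0.77 in this comparison (95% interval -3.07 to 0.34) and C1qc 0.02 ± 0.95 (-2.07 to 2.11). In a fit of those groups alone with replicate number as a block, 2 passed (Cfb and C1qb), where 1739 of 23142 genes and transcripts did. With that block over all 12 arrays C1qb did not pass by limma (adjusted p = 0.0846).

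The order of the genotype means was Bach2 KO, DKO, WT, Bach1 KO for C1qa and C1qb, and DKO, Bach2 KO, WT, Bach1 KO for C1qc. For C3ar1 it was Bach2 KO, DKO, Bach1 KO, WT, and for C5ar1 it was Bach1 KO, WT, DKO, Bach2 KO. Cfp had Bach1 KO, WT, DKO, Bach2 KO, Cfb had Bach1 KO, WT, Bach2 KO, DKO, and C3 had WT, Bach1 KO, Bach2 KO, DKO. Bach1 KO and WT, neighbours in each of these orders, passed for 0 of the 8 genes in the fit reported here. Among the alternatives they passed for C1qc without WT replicate 3. Bach2 KO and DKO passed for Cfb. For C1qb they passed only in the fit of those groups alone with the block and with array quality weights.

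Other genes of the pathway were read from a list of 53 genes ordered by role. C4a and C7 were not matched to a probe, and 34 genes passed the filter on dim probes. Of these 34, 7 rose and 11 fell in Bach2 KO against WT, 6 rose and 6 fell in DKO against WT, and 0 passed in Bach1 KO against WT by limma. In Bach1 KO 5 of 34 had an unadjusted p under 0.05, against 1229 of 23142 genes and transcripts. The medians of the 34 genes were -0.23, -0.31 and -0.07, against -0.30, -0.28 and -0.07 over all genes and transcripts. The genes that passed moved both ways, and the 18 of 34 that passed in Bach2 KO stand beside 37.1% of all.

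**Figure D3:**
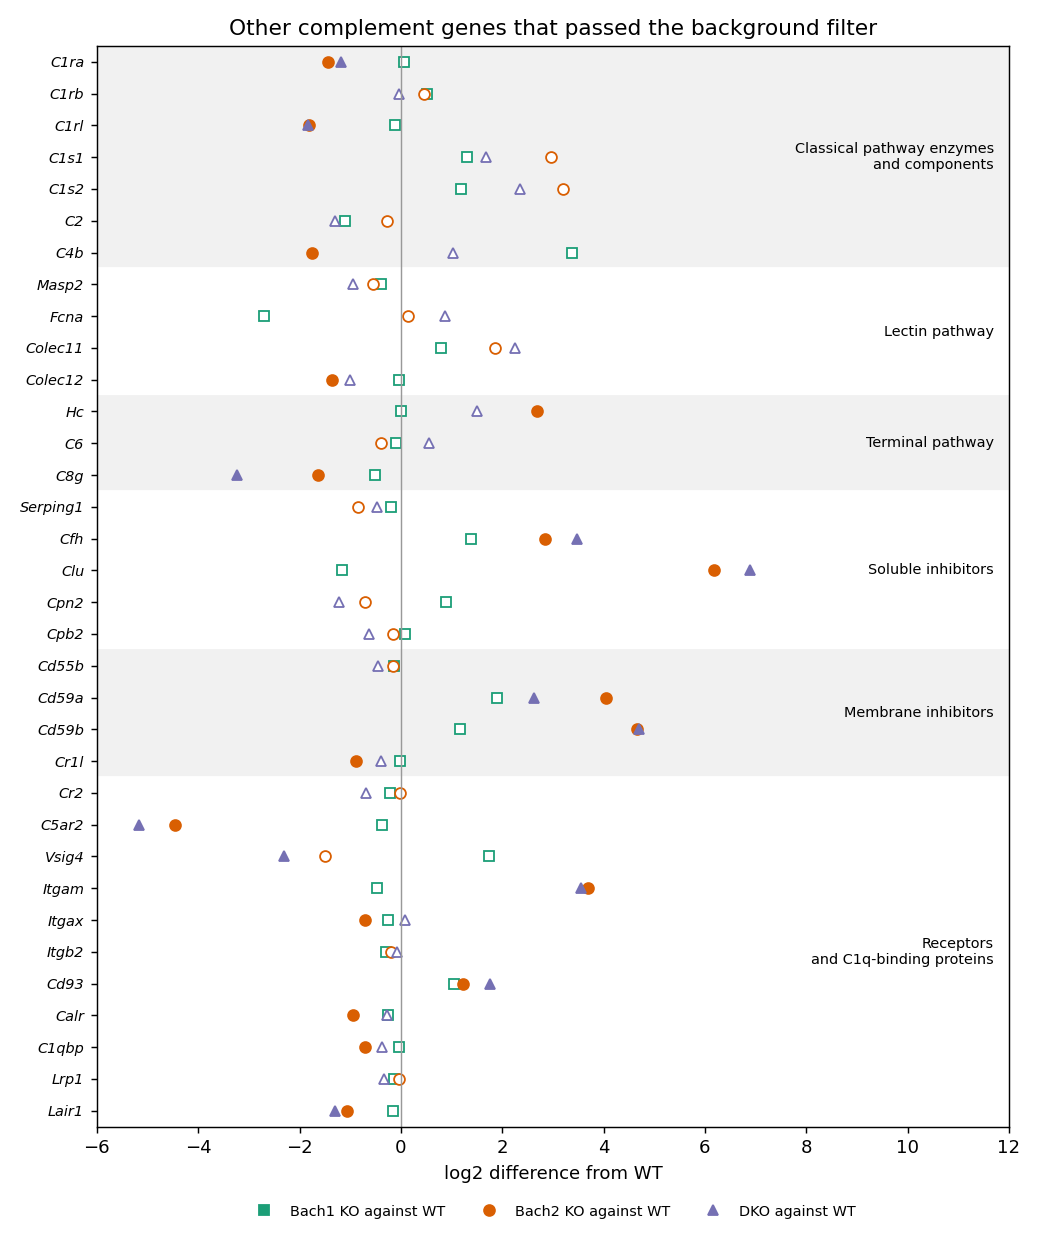
Differences of the 34 other complement genes that passed the filter on dim probes, in log2 units (horizontal axis), grouped by role, for Bach1 KO, Bach2 KO and DKO against WT. Filled points passed an adjusted p of 0.05, hollow points did not. Itgam and Clu lie to the right and C5ar2 to the left in both genotypes without Bach2.

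Among the receptors and C1q-binding proteins, 2 of 11 rose and 5 fell in Bach2 KO against WT, and 2 rose and 3 fell in DKO. These counts, and those by role that follow, stand beside 12.4% higher and 24.7% lower over all genes and transcripts in Bach2 KO against WT, and 10.6% higher and 16.6% lower in DKO against WT. C5ar2, the other C5a receptor, read 1.81, 2.12 and 1.27 in Bach1 KO, -2.56, -2.31 and -2.14 in Bach2 KO and -2.82, -3.27 and -3.07 in DKO, against 2.08, 2.64 and 1.62 in WT. Like those of C5ar1, its arrays without Bach2 all lay below the others, and it fell in Bach2 KO (-4.45 ± 0.33, adjusted p = 2.85e-06) and in DKO (-5.16 ± 0.33, adjusted p = 5.81e-07). Itgam, the alpha chain of complement receptor CR3, read 0.37, 0.43 and 1.27 in Bach1 KO, 4.90, 4.81 and 4.89 in Bach2 KO and 4.41, 4.90 and 4.86 in DKO, against 1.02, 2.19 and 0.29 in WT. It rose in Bach2 KO (3.70 ± 0.41, adjusted p = 6.05e-05) and in DKO (3.56 ± 0.41, adjusted p = 6.38e-05). Itgb2, the beta chain of that receptor, did not pass in either comparison with the 75th percentile scaling, and passed as higher in Bach2 KO with quantile normalization (0.70). Cd93, a surface protein first described as a C1q receptor, rose in Bach2 KO (1.23) and in DKO (1.76 ± 0.31, adjusted p = 0.00149). Lair1, an inhibitory receptor that also binds C1q, fell in Bach2 KO (-1.06) and in DKO (-1.30 ± 0.32, adjusted p = 0.0110). Both Lair1 calls were lost with no scaling between arrays, and the Bach2 KO call was lost in 8 of 23 alternatives. Vsig4, a macrophage receptor for C3 fragments, was well above background on 2 of 3 WT arrays and on no DKO array. It was at least 1.71-fold lower in DKO (adjusted p = 0.0394). It did not pass without WT replicate 2, the brightest WT array, or without any of the 3 DKO arrays.

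Of the soluble inhibitors, 2 of 5 rose and 0 fell in both genotypes without Bach2. Clu, clusterin, an inhibitor of the terminal complex, read -5.35, -4.08 and -6.60 in Bach1 KO, 2.03, 2.11 and 1.80 in Bach2 KO and 3.44, 1.72 and 2.93 in DKO, against -4.10, -3.00 and -5.48 in WT. The groups without Bach2 did not overlap the others, and Clu rose in Bach2 KO (6.17 ± 0.71, adjusted p = 7.57e-05) and in DKO (6.89 ± 0.71, adjusted p = 2.44e-05). Of the membrane inhibitors, 2 of 4 rose in each of these genotypes and 1 fell in Bach2 KO. Cd59b, which blocks pore formation, was well above background on 0 of 3 WT arrays and was at least 6.92-fold higher in Bach2 KO (adjusted p = 0.00112) and at least 7.07-fold higher in DKO (adjusted p = 0.00109). Its probe passed the filter on dim probes only through these genotypes, where it was high. Cd59a rose in Bach2 KO (4.05 ± 0.76, adjusted p = 0.00199), but was well above background on 1 of 3 WT arrays. Cd59a and Cd59b are close paralogs, so signal shared between their probes makes both values uncertain. Cr1l, the rodent regulator Crry, fell in Bach2 KO (-0.89 ± 0.20, adjusted p = 0.00594), and this call was lost with quantile normalization and with no scaling between arrays.

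Of the classical pathway genes other than C1q, 0 of 7 rose and 3 fell in Bach2 KO against WT, and 0 rose and 2 fell in DKO. C1rl, a C1r-like protease, fell by 1.82 on the log2 scale in Bach2 KO (SE 0.24, adjusted p = 0.000193) and by 1.83 in DKO (SE 0.24, adjusted p = 0.000165). C1ra, a protease of the C1 complex and a near-identical copy of C1rb, fell in Bach2 KO (-1.44 ± 0.34, adjusted p = 0.00738) and in DKO (-1.18 ± 0.34, adjusted p = 0.0243), a DKO call that was lost without either WT replicate 1 or WT replicate 3 and without any of the 3 DKO arrays. With no scaling between arrays neither call held, and the Bach2 KO call was also lost on slide 1 alone. Beside these, 3 of 3 C1q chains rose in each genotype. C1qa and C1qc passed the filter on dim probes only through the genotypes without Bach2, where they were high. C4b, which encodes C4 and has the near-identical copy C4a, read 3.23, 3.04 and 2.98 in Bach1 KO, -1.92, -2.19 and -2.03 in Bach2 KO and 0.94, 0.26 and 0.98 in DKO, against -0.35, -1.78 and 1.23 in WT. It was higher in DKO than in Bach2 KO (2.77 ± 0.57, adjusted p = 0.0243) and lower in Bach2 KO than in Bach1 KO (-5.13 ± 0.57, adjusted p = 5.87e-05). The Bach1 KO arrays lay above all WT arrays, but 3.38 ± 0.57 did not pass (adjusted p = 0.0760). The DKO against Bach2 KO call was lost without any of the 3 Bach2 KO arrays and without DKO replicate 1 or 3.

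Of the 4 lectin pathway genes tested, 0 rose and 1 fell in Bach2 KO against WT and 0 passed in DKO by limma. At an unadjusted p under 0.05 there were 2 of 4 in DKO, against 9318 of 23142 genes and transcripts. Of the 3 terminal pathway genes, C8g, the gamma chain of C8, fell in Bach2 KO (-1.63 ± 0.33, adjusted p = 0.00332) and in DKO (-3.23 ± 0.33, adjusted p = 2.42e-05), each against WT, the Bach2 KO call being lost with no scaling between arrays. C8g was also lower in DKO than in Bach2 KO (-1.60 ± 0.33, adjusted p = 0.0259). This last call was lost without any of the 3 Bach2 KO arrays, without DKO replicate 1 or 3, and with the mean of the gene's probes. Hc, which encodes C5, rose in Bach2 KO (2.68 ± 0.55, adjusted p = 0.00352), and its 1.49 ± 0.55 in DKO did not pass (adjusted p = 0.0654), each against WT. Fcna, a ficolin that starts the lectin pathway, was higher in DKO than in Bach1 KO (3.58 ± 0.93, adjusted p = 0.0155), a call lost without Bach1 KO replicate 1 or 3 or DKO replicate 3. Fcna was well above background on Bach1 KO replicate 2 (-2.17) and not on replicates 1 and 3 (-6.45 and -5.91), so the size of this difference rests on dim arrays. Cfd, the protease that activates factor B, did not pass the filter on dim probes.

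The genes next to the members on the chromosome were read to see whether whole neighbourhoods moved. The nearest protein-coding neighbour on each side was taken from the RefSeq gene order (GRCm38.p6), passing over members and predicted genes, and 11 neighbours were tested. Of these, 4 rose and 3 fell in Bach2 KO, 4 rose and 1 fell in DKO, and 1 rose in Bach1 KO, each against WT, where 37.1%, 27.2% and 0.0605% of all genes and transcripts passed. C1qa, C1qb and C1qc lie side by side on chromosome 4. Ephb2, the Eph receptor gene on one side of them, did not pass in any comparison (-0.50 ± 0.37 in Bach2 KO and -0.87 ± 0.37 in DKO against WT), and Epha8 on the other side did not pass the filter on dim probes. The difference between the chains and this neighbour was not tested. C5ar1 and C5ar2 are neighbours on chromosome 7 and both fell, while Ccdc9, on the other side of C5ar1, rose (3.06 ± 0.68, adjusted p = 0.00509 in Bach2 KO, and 3.00 ± 0.68, adjusted p = 0.00669 in DKO).

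Timp1, an inhibitor of metalloproteinases that lies beside Cfp on chromosome X, averaged 0.36 ± 0.40 in Bach1 KO, 4.76 ± 0.43 in Bach2 KO and 5.79 ± 0.25 in DKO, against -0.33 ± 0.42 in WT (SD, n = 3). It rose by 5.09 ± 0.31 in Bach2 KO (adjusted p = 6.52e-07) and by 6.12 ± 0.31 in DKO (adjusted p = 1.07e-07), whereas Cfp fell in both. Tnfsf14 (LIGHT, a T cell costimulatory ligand), which lies beside C3 on chromosome 17, averaged 2.48 ± 0.39 in Bach1 KO, 2.38 ± 0.35 in Bach2 KO and 2.92 ± 0.55 in DKO, against -0.73 ± 0.42 in WT. It rose in Bach1 KO (3.20 ± 0.35, adjusted p = 0.0052), in Bach2 KO (3.11 ± 0.35, adjusted p = 6.08e-05) and in DKO (3.64 ± 0.35, adjusted p = 1.25e-05), with an interaction of -2.67 ± 0.49 (adjusted p = 0.0330). That interaction call was lost without WT replicate 1, Bach1 KO replicate 1 or 3, any Bach2 KO array, and DKO replicate 1 or 2. Next to Cfb, Nelfe fell in Bach2 KO (-0.83 ± 0.20, adjusted p = 0.00786), a call lost with quantile normalization and with no scaling between arrays, and C2 did not pass in either genotype without Bach2. Necap1, next to C3ar1, rose in DKO (1.49 ± 0.29, adjusted p = 0.00269).

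**Figure D4:**
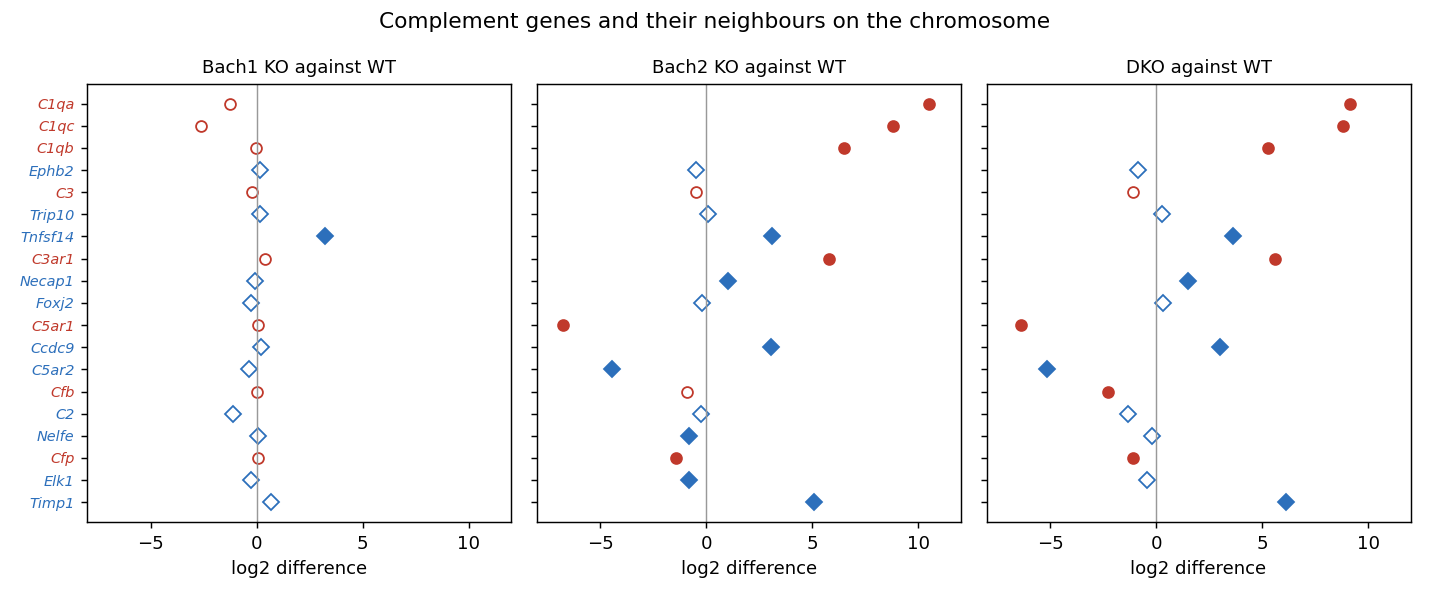
Differences against WT in log2 units (horizontal axis) of the 8 complement genes (red circles) and of their tested neighbours on the chromosome (blue diamonds), each member followed by its neighbours. Filled symbols passed an adjusted p of 0.05. The C1q chains lie far to the right of Ephb2, Cfp and Timp1 lie on opposite sides of 0, and C5ar1 and C5ar2 lie together on the left, in Bach2 KO and DKO.

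The genes whose profiles over the arrays came nearest to each member were found by the root-mean-square difference of their centred levels, in log2 units, among named genes measured above background on at least as many arrays. For C1qa, over 11 arrays, the nearest were Mmp12 (1.03), Cpq (1.32) and Htr2b (1.33). For C1qb, over 12 arrays as for all that follow, they were Cd38 (0.451), B4galt6 (0.509) and Tnip3 (0.537). C1qc was nearest to Gpc1 (1.12), Plbd1 (1.17) and Ccr7 (1.28). C3ar1 was nearest to Mcf2l (0.641), Syngr1 (0.701) and Traf1 (0.782). C5ar1 was nearest to Pilrb2 (0.466), Pilra (0.467) and Gal (0.505). Profiles close to that of Cfb were those of Rras (0.259) and Dcxr (0.296), the nearest of Cfp were Nt5c (0.145), Paxx (0.177) and 0610010K14Rik (0.178), and the nearest of C3 were Phlda3 (0.242), Pdxk (0.245) and AI662270 (0.267). These values share the arrays and their scaling and are given as a description.

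Several marker lists, of the sorted cell type and of other cells, moved with the same genotypes, and other lists did not. All 14 alveolar macrophage markers were well above background on all WT arrays, among them Siglecf, Marco and Pparg. Their summed level, on a linear scale where the array's 75th percentile is 1, was 1130 to 1809 in Bach1 KO, 473 to 639 in Bach2 KO and 413 to 657 in DKO, against 1535 to 1930 in WT. Of the 14, 12 fell in Bach2 KO and 10 in DKO, with 0 higher in either. These counts, and those of the lists that follow, stand beside 12.4% higher and 24.7% lower over all genes and transcripts in Bach2 KO. In DKO these shares were 10.6% higher and 16.6% lower, each against WT. Siglecf and Marco, which are among the 14 alveolar macrophage markers, were lower in Bach2 KO than in WT by 6.33 and 5.29 on the log2 scale (fitted differences -6.33 and -5.29). Both stayed well above background in Bach2 KO. The 13 interstitial macrophage markers, of the macrophage population of the lung wall that makes C1q, summed to 90.0 to 115 in Bach1 KO, 214 to 251 in Bach2 KO and 241 to 356 in DKO, against 104 to 119 in WT. Of the 12 that were tested, 8 rose in each of Bach2 KO and DKO, among them Maf and Stab1. In Bach2 KO 1 fell, and in DKO 0 fell. Folr2, Cd163 and Stab1 were well above background on no WT array, so the size of the rise in Stab1 is not known. Cd163 stayed near background on all 12 arrays. The monocyte markers summed to 93.97 to 123 in Bach1 KO, 144 to 183 in Bach2 KO and 186 to 299.995 in DKO, against 97.2 to 164 in WT, and 4 of 10 rose and 2 fell in Bach2 KO. The dendritic cell markers summed to 0.711 to 2.47 in Bach1 KO, 35.03 to 46.8 in Bach2 KO and 31.6 to 61.5 in DKO, against 1.13 to 1.999 in WT. Of 6 tested, 4 rose and 0 fell in each of Bach2 KO and DKO. The T cell markers summed to 1.51 to 2.62 in Bach1 KO, 26.6 to 34.0 in Bach2 KO and 32.5 to 53.7 in DKO, against 1.27 to 2.77 in WT. Of 7 tested, 5 rose and 0 fell in each of Bach2 KO and DKO. Each sum adds the levels of different probes, so the brightest probes weigh most in it. The neutrophil markers summed to 48.9 to 63.5 in Bach2 KO and 69.0 to 80.8 in DKO, against 86.8 to 118 in WT. In Bach1 KO they summed to 70.0 to 124. Of 6 tested, 1 rose and 2 fell in Bach2 KO, and 1 rose and 1 fell in DKO. The eosinophil markers summed to 0.0460 to 0.0611 in Bach2 KO, against 0.0409 to 0.0618 in WT. Of 2 fibroblast markers tested, 0 passed in Bach2 KO or DKO. The B cell, epithelial, endothelial and erythroid markers are not described here. The part of any of these cell types in the levels of C1q, C3ar1 and the other complement genes was not tested. In sorted bulk samples, fewer cells of a type and less RNA per cell cannot be told apart.

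On slide 1 alone, which holds Bach2 KO replicates 1 and 2 with all WT arrays, C1qb was higher in Bach2 KO than in WT by 6.13 (adjusted p = 4.34e-05), C1qc by 8.76 (adjusted p = 0.00261) and C3ar1 by 5.56 (adjusted p = 0.00578). C5ar1 was at -6.92 (adjusted p = 2.69e-05) and Cfp at -1.49 (adjusted p = 0.0151) there, so that these 5 calls held within the slide. Cfb did not pass (-1.01, adjusted p = 0.0690), and C1qa had too few values for a fit. For DKO no such value exists, because all its arrays lie on another slide.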

How the data were processed

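Sorted alveolar macrophages of each mouse were profiled on 1 Agilent array with a single dye. The deposited scanner files hold background-corrected fluorescence intensity per spot, made by the authors with Feature Extraction 10.7.3.1 per the file headers, while the submitters' processing notes name version 9.1. A deposited series matrix holds log2 values of 20850 probes, of which 20802 matched and correlated with the values below (r at least 0.99992 per array); its centring is not stated there. Here log2 of the processed intensity minus each array's 75th percentile was used. Control spots and outlier spots were left out, and spots of a probe were averaged. Of 55681 probes, 26413 had a gene name through the RefSeq table, by accession. The filter on dim probes required a genotype whose arrays were all well above background (30904 probes kept), and the brightest probe per gene or transcript was tested (23142). limma 3.58.1 in R 4.3.3 fitted 1 mean per genotype over 12 arrays (lmFit, eBayes with trend), with Benjamini-Hochberg adjustment, checked on simulated data. "At least N-fold" was used where a genotype had no array well above background.

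Named genes were the 8 members, up to 4 genes per direction and comparison of a list of 53 complement genes, by smallest adjusted p, the 3 nearest profiles per member (for Cfb, 1 of them is not reported here) and the chromosomal neighbours; other named genes of the list and markers were chosen after their values were seen. The members and lists were chosen with earlier results of these data known. The mice are described as independent. Deviations from the genotype means correlated at 0.117, 0.123 and 0.117 for the 3 same-numbered pairs of Bach2 KO and DKO, so a replicate block was added for that comparison after seeing the data. In no other comparison were all 3 pairs over 0.1. Alternatives are given in the closing section; background correction by normexp used median signals, chosen after seeing the data. The array design and the RefSeq table differ in build, so no gene coordinates beyond the promoter windows are given.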

Additional observations from a re-analysis of the deposited data

Results flagged for a closer look

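Itgax, the alpha chain of complement receptor CR4 and also an alveolar macrophage marker, had differences of opposite sign on loss of Bach1 with and without Bach2, none of which passed. It read 6.24, 6.13 and 6.08 in Bach1 KO against 6.35, 6.30 and 6.59 in WT (difference -0.26, adjusted p = 0.9999), and 6.21, 6.31 and 6.95 in DKO against 5.96, 5.97 and 5.18 in Bach2 KO (difference 0.79, adjusted p = 0.110). All Bach1 KO arrays lay below all WT arrays and all DKO arrays lay above all Bach2 KO arrays. Itgax was flagged by a rule that looks for such separation in opposite directions, so the separation is no further result. Over all genes and transcripts 6.78% did not overlap in Bach1 KO against WT and 35.1% in DKO against Bach2 KO. The interaction by limma was 1.05 ± 0.36, which did not pass (adjusted p = 0.233). All DKO arrays lie on a slide of their own, so this difference cannot be told apart from the slide.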

How the results depend on the processing

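Among the 8 complement genes, 0 called differences reversed, 24 values lost and 12 gained a call, 1190 kept direction and call, and 47 changed sign without passing before or after, over the alternatives run. In DKO against Bach2 KO the count of 1 (Cfb) became 0 with scaling to the array median, no filter on dim probes, eBayes without a trend, slide as a random block and an adjusted p under 0.01, 2 with array quality weights, and 2 with a replicate block in a fit of those groups alone, and lay between 0 and 1 when arrays were left out in turn. In Bach1 KO against WT and for the interaction the count of 0 became 1 without WT replicate 3, a range of 0 to 1 over left-out arrays. The ranges were 5 to 8 for Bach2 KO against WT, 7 to 8 for DKO against WT, 7 for DKO against Bach1 KO and 5 to 6 for Bach2 KO against Bach1 KO. With probes well above background on all 12 arrays, 4 passed in DKO against WT, DKO against Bach1 KO and Bach2 KO against Bach1 KO, since only 5 of the genes were then tested. With quantile normalization C1qbp was 0.041 in Bach2 KO against Bach1 KO and 0.16 in Bach2 KO against WT, where Elk1 was 0.070, Itgax 0.16 and Itgb2 0.70, each opposite in sign to the value with 75th percentile scaling. The cause was not tested.

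With replicate number as a block, 0 passed in Bach1 KO against WT, 7 in Bach2 KO against WT, 7 in DKO against WT and 1 in DKO against Bach2 KO; the added call was Cfb in Bach2 KO. Over all genotypes, same-numbered arrays correlated between -0.14 and 0.39, with 6 of 18 over 0.1. With no scaling the median of all genes and transcripts moved to 0.39 from -0.30 in Bach2 KO against WT and to 0.16 from -0.28 in DKO against WT, and the share of higher calls to 68.8% from 33.5% and to 63.0% from 38.9%. Over all genes the count ran from 2 to 86 (14 as reported) in Bach1 KO against WT, from 243 to 3610 (824; 1739 with the block in those groups alone) in DKO against Bach2 KO and from 49 to 570 (156) for the interaction. At an adjusted p under 0.01 it was 4793 (8586) in Bach2 KO against WT and 3484 (6288) in DKO against WT. C1qa and C1qc in WT and Bach1 KO are limited by signal near background.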
